A study of Mus musculus with 15 samples.

Results

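Epithelial cells sorted from the lung metastatic niche of a group labelled shSox9 were compared with epithelial cells from distal lung, over all genes and 3 libraries a side. The 6 libraries were chosen by their labels, out of 15 in the series. All mice were BALB/c and all received 800000 cells of 4T1, a mammary carcinoma line, by the tail vein. These cells carried a system that labels their neighbours, so that the niche could be told from the rest of the lung, and each library came from a pool of 5 lungs taken 7 days later. The distal libraries carry the treatment label control, whereas the niche libraries carry the label shSox9, a hairpin against Sox9. Place in the lung and label therefore change together and cannot be told apart in this comparison. The 15 libraries of the series include no distal epithelium with the shSox9 label. The sample titles name EpCAM, an adhesion protein of epithelial cells, and the labels call the cells lung epithelial cells. The sources used here do not say which cells received the hairpin. Another group, niche epithelium with the label control (3 libraries, called the control niche here), served to test which differences from distal lung depended on the label, and 4T1 cells recovered from lung (in vivo, 3 libraries) gave the level of each gene in the tumour, in the same unit without TMM scaling.

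The alveoli are lined by alveolar type 2 (AT2) cells, which make and recycle surfactant and act as progenitors, and by flat alveolar type 1 (AT1) cells, which carry out gas exchange. Club and ciliated cells line the airways. Tumour cells that lodge in the lung meet this epithelium together with fibroblasts, vessels and immune cells, and this local surrounding is the metastatic niche. Sox9 encodes a transcription factor of the distal tips of the developing lung, which is also made by many carcinoma cells.

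Libraries of the comparison held 15907316 to 20208920 counts, and levels are given as CPM, counts scaled to a common library total with TMM factors, which even out differences in library makeup. Sox9 (chromosome 11, 112782224 to 112787760 of GRCm38) stood at 5.19, 5.93 and 6.29 CPM in distal libraries 1 to 3 and at 81.3, 58.7 and 35.9 CPM in the shSox9 niche libraries. The label names Sox9, yet the gene was higher there than in distal lung (log2 fold change 3.34, SE 0.32, edgeR adjusted p = 1.21e-05). Against niche epithelium labelled control, at 59.6, 55.1 and 31.9 CPM, no difference passed the test (log2 fold change 0.26, SE 0.27, edgeR adjusted p = 0.55). The in vivo 4T1 mean was 349.8 CPM. In what follows the label is used as a name, and no difference is read as an effect of less Sox9.

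Genes of the tumour line were detected in the niche libraries, and a share of 4T1 RNA was estimated from them. A panel of 4 genes with at least 20 CPM in each 4T1 library and at most 0.5 CPM in each distal library reached 16.6%, 16.0% and 13.3% of its in vivo 4T1 level in the shSox9 niche. In distal libraries it reached 0.352%, 0.811% and 0.974%. The difference was 14.6 percentage points (p = 0.1 by a two-sided exact permutation test, which cannot go lower with 3 libraries a side), and low distal counts chose the panel. The panel genes did not move together. Hoxa10 stood at 27.0%, 25.2% and 16.8% of its in vivo 4T1 level in the shSox9 niche, Parpbp at 17.3%, 27.6% and 24.3%, and Atg9b at 17.0%, 8.12% and 10.6%, whereas Exosc6 had no count in any of the 6 libraries compared. Without Exosc6 the panel reached 20.9%, 20.2% and 16.8% in the shSox9 niche. A wider panel of 14 genes, with at most 1 CPM in distal libraries, gave 21.02%, 16.7% and 11.96%.

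Library 1 of the shSox9 niche stood apart from libraries 2 and 3 on the second principal component of the 9 epithelial libraries (-25.9, against -67.9 and -62.2), and it held more macrophage transcripts, as given below. The labelled cell type was checked against its markers. On the authors' scale of TPM, which divides by transcript length, the mean for Sftpc, the AT2 marker, was 321435 in distal lung and 87131 in the shSox9 niche, that for Epcam was 62.4 and 26.8, and that for the collagen gene Col1a1, a fibroblast marker, was 229.6 and 1695.

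Of 17640 genes tested, 7719 (43.8%) differed between the shSox9 niche and distal lung by the edgeR test at an adjusted p below 0.05. Of these, 3833 (21.7% of genes tested) were higher in the shSox9 niche and 3886 (22.0%) were lower, and these shares are the background against which each gene group is read. Plain library sizes in place of TMM scaling gave 6471 higher and 2662 lower genes, so that 70.9% of calls were higher instead of 49.7%, and moved the median log2 fold change of all genes from -0.00 to 0.28. A change of at least 2-fold was seen for 1478 of the higher and 2372 of the lower genes. Without shSox9 library 1, 3723 genes were higher and 3992 lower. The 3 libraries of each side did not overlap in 52.8% of genes, 25.8% higher and 26.9% lower. To show which differences a simple addition of tumour RNA would give, each gene was set against a mixture of distal RNA and 4T1 RNA. The share of 4T1 RNA was 16.6%, the highest that the panel of 4 genes gave for a shSox9 library. Distal and shSox9 levels carried TMM scaling, by factors of 0.841 to 0.912 and 1.02 to 1.12, and 4T1 levels did not. Dividing by these factors raises distal and lowers shSox9 levels, which favours places below the mixture. A mixture in 1 unit was not tried. All 3 shSox9 libraries lay above this mixture for 2111 of the 3833 higher genes (55.1%), and below it for 3612 of the 3886 lower genes (92.9%). With the highest share from the wider panel, 21.02%, the counts were 1867 and 3524. Single genes named below as above or below the mixture were set against the 16.6% share only. By that share 4T1 RNA could supply at least 50% of the rise for 1881 of the 3833 higher genes.

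The niche group labelled control shares its distal reference with this comparison, so the niche groups were set against each other directly. On its own, the control niche differed from distal lung in 9579 genes (54.3%), 5025 of them higher (28.5%) and 4554 lower (25.8%). The niche groups differed in 3616 genes (20.5%), of which 1707 (9.68%) were higher and 1909 (10.8%) lower under the shSox9 label. Without control niche library 1, 2238 were called, 940 of them higher, and the higher genes numbered 1107 without control niche library 2 and 1101 without shSox9 library 2. Of the genes higher than in distal lung, 3020 were not told from the control niche by this test, 391 were above it and 422 below it. Of the genes lower than in distal lung, 2668 were not told from the control niche, 775 were above it and 443 were still lower. A further 1044 genes showed no called difference from distal lung and were below the control niche.

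**Figure D1:**
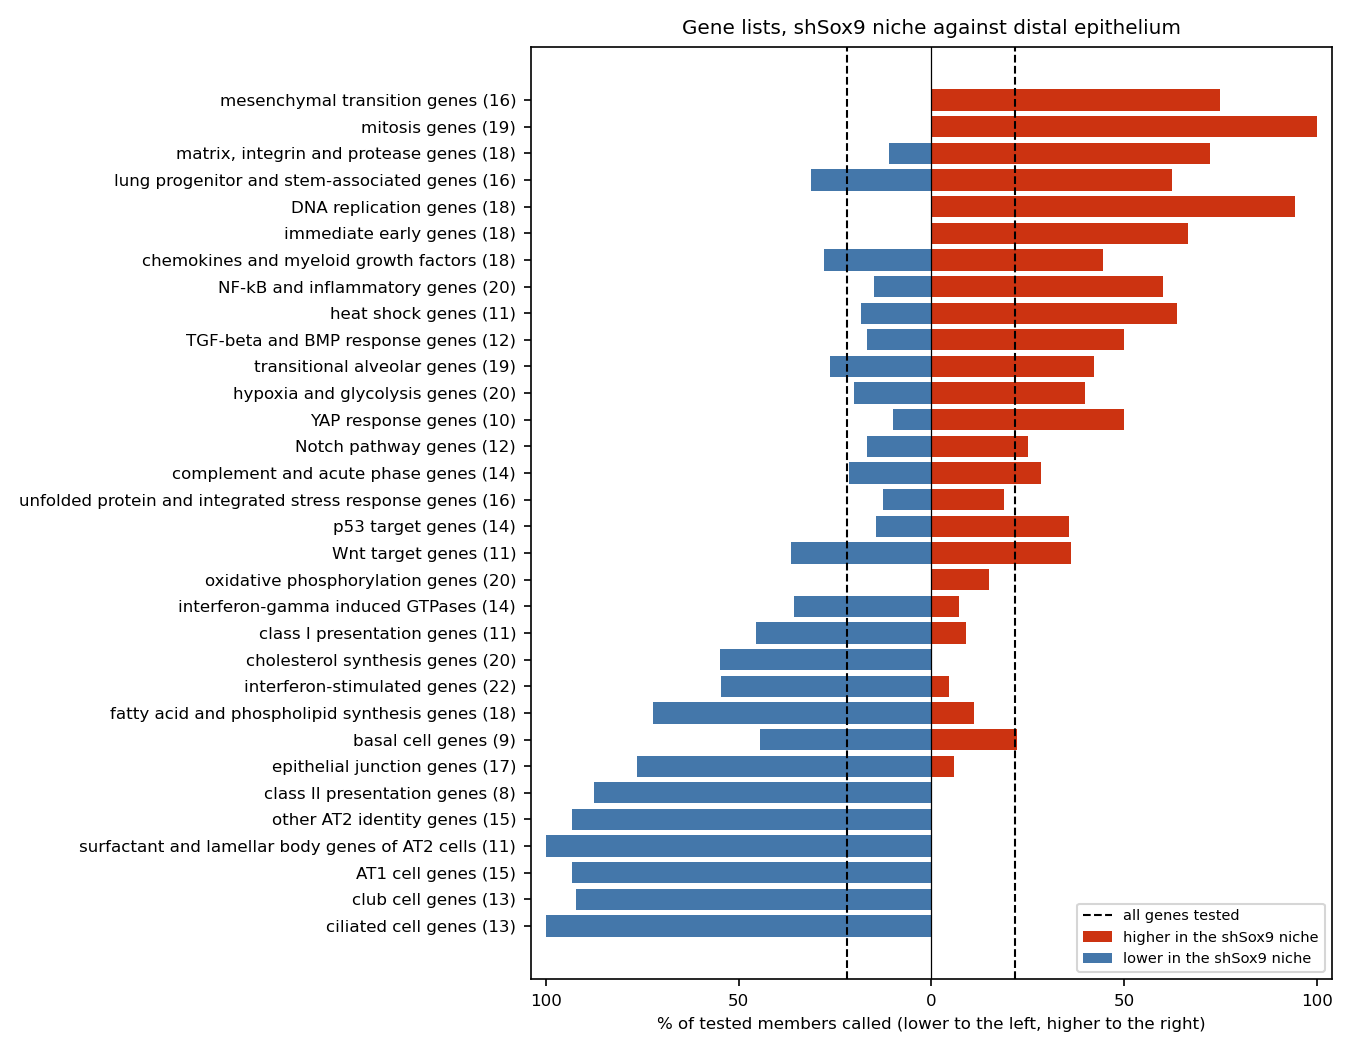
Share of the tested members of each gene list that were called higher (right, red) or lower (left, blue) in the shSox9 niche than in distal epithelium, in percent, with the number tested in parentheses. Dashed lines mark all genes tested, 21.7% higher and 22.0% lower; the ciliated, AT1, AT2 and club lists reach far to the left and the mitosis list lies wholly to the right.

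Genes of AT2 cells were lower in the shSox9 niche without exception in the surfactant list and with 1 exception in the list of other AT2 genes. All 11 tested of 12 surfactant and lamellar body genes fell, with a median log2 fold change of -2.33 beside -0.00 over all genes. Their summed level was 17.9% of that in distal lung. Of 15 other AT2 genes, 14 fell, with a median of -2.13. In bulk samples such as these, fewer cells of a type and less RNA per cell cannot be told apart.

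Sftpc encodes surfactant protein C, the peptide most specific to AT2 cells (chromosome 14, 70520949 to 70524081). It stood at 243088, 183400.0 and 204034 CPM in distal lung and at 25779, 38502 and 50913 CPM in the shSox9 niche, a 5.48-fold lower level with no overlap (log2 fold change -2.45, SE 0.29, edgeR adjusted p = 5.07e-05). Abca3, the lipid transporter of lamellar bodies, stood at 499, 425 and 411 CPM in distal lung and 98.3, 131 and 88.0 CPM in the shSox9 niche (log2 fold change -2.07, SE 0.15, edgeR adjusted p = 2.38e-06). Both genes lay between the other groups, since the control niche had means of 8921 CPM for Sftpc and 42.8 CPM for Abca3. The shSox9 niche was above the control niche for 10 of the 11 surfactant genes and below it for none, with a median difference of 1.59 on the log2 scale. The difference was 2.11 for Sftpc (edgeR adjusted p = 5.64e-04), 1.30 for Abca3 (adjusted p = 2.61e-04) and 1.98 for Lamp3, a lamellar body membrane protein (adjusted p = 1.47e-04).

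Nkx2-1, the transcription factor that sets lung epithelial identity, stood at 159, 155 and 151 CPM in distal lung and at 18.5, 32.5 and 26.7 CPM in the shSox9 niche (log2 fold change -2.58, SE 0.21, edgeR adjusted p = 4.12e-06). The control niche was lower still, at 7.53, 9.82 and 5.67 CPM (shSox9 against control niche, log2 fold change 1.74, SE 0.22, edgeR adjusted p = 3.55e-04). Cebpa, another factor of mature AT2 cells, fell by 1.87 on the log2 scale (edgeR adjusted p = 5.62e-06), and no difference between the niche groups was called (difference -0.24, adjusted p = 0.31). Lyz2, a lysozyme made by AT2 cells and by macrophages, fell by 2.60 (adjusted p = 3.01e-06), again with no called difference between niche groups (-0.31, adjusted p = 0.28).

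Lipid synthesis feeds surfactant, and its genes were lower too. Of 18 genes of fatty acid and phospholipid synthesis, 13 fell and 2 rose, with a median log2 fold change of -0.88. Scd1, a desaturase, stood at 8973, 5811 and 6321 CPM in distal lung and 1833, 3486 and 1935 CPM in the shSox9 niche (log2 fold change -1.54, SE 0.27, edgeR adjusted p = 8.60e-04), and it was above the control niche by 1.85 (adjusted p = 9.73e-04). Fasn, the fatty acid synthase, fell by 1.11 (edgeR adjusted p = 2.08e-04) and was above the control niche by 1.15 (adjusted p = 6.68e-04). The exceptions were Elovl6, an elongase, which rose by 1.63 (adjusted p = 6.77e-06), and the desaturase Fads2, which rose by 0.89 (adjusted p = 4.21e-04). Of 20 cholesterol synthesis genes 11 fell and none rose, with a median of -0.31. This group depends on scaling, for with plain library sizes 5 fell and 2 rose, and 7 fell without distal library 1.

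**Figure D2:**
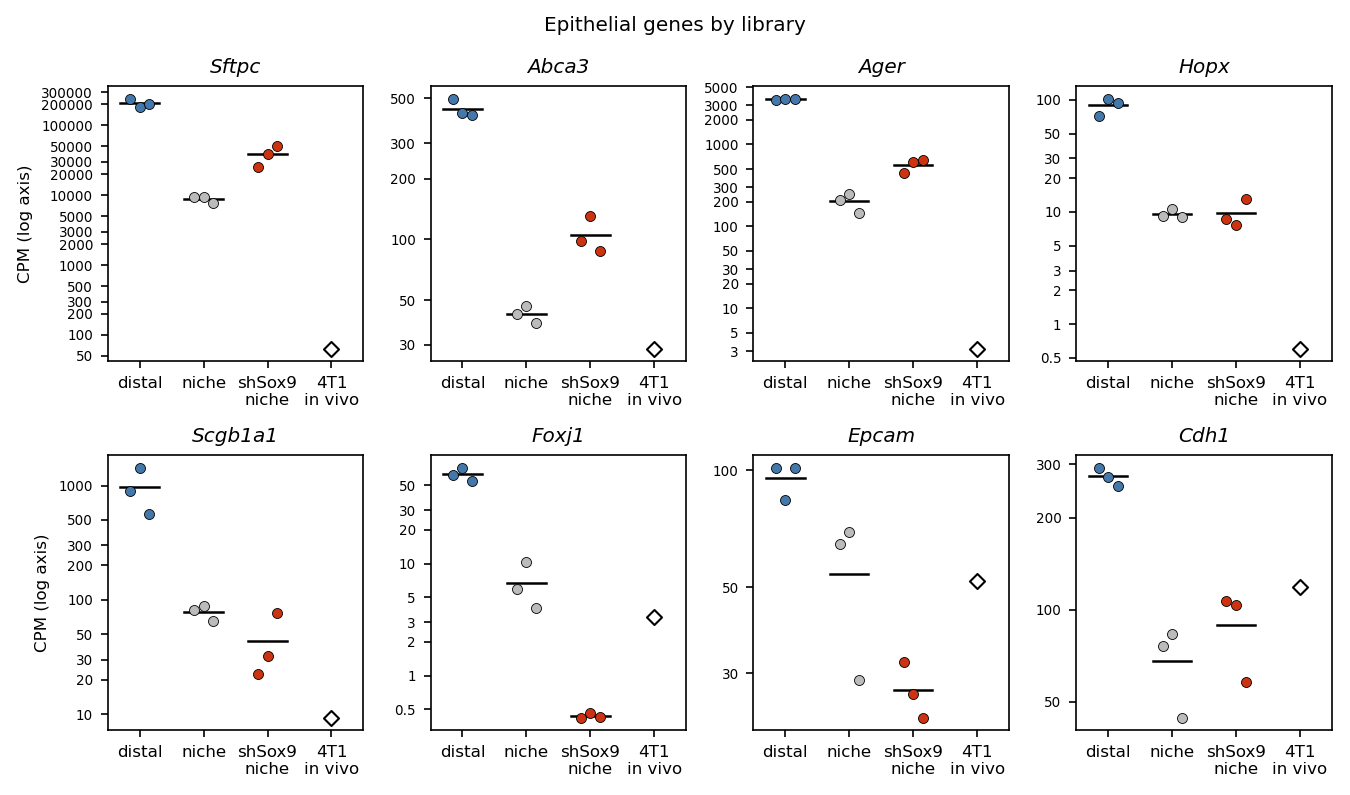
Level of 8 epithelial genes in each library (CPM after TMM scaling, log axis; points are libraries, bars are means of 3, and the open diamond is the mean plain CPM of 3 in vivo 4T1 libraries). For Sftpc, Abca3 and Ager the shSox9 niche lies between the control niche and distal lung, whereas for Foxj1 it lies below both.

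AT1 genes fell as well, 14 of 15, with a median log2 fold change of -2.60. Ager, a receptor abundant on AT1 cells (chromosome 17, 34597862 to 34600936), stood at 3502, 3636 and 3575 CPM in distal lung and 446, 615 and 644 CPM in the shSox9 niche (log2 fold change -2.65, SE 0.20, edgeR adjusted p = 2.79e-06). It was above the control niche, whose libraries held 212, 247 and 147 CPM (log2 fold change 1.49, SE 0.19, edgeR adjusted p = 4.57e-04). Hopx, a homeobox gene of AT1 cells, fell further, from 72.0, 103 and 93.6 CPM to 8.70, 7.68 and 13.1 CPM (log2 fold change -3.19, SE 0.20, edgeR adjusted p = 1.14e-06), and here the niche groups were not told apart (0.02, adjusted p = 0.96). Igfbp2, a marker of terminal AT1 cells, fell by 5.40 (adjusted p = 3.00e-06), Rtkn2 by 3.79 (adjusted p = 6.84e-07) and the chloride channel protein gene Clic5 by 3.56 (adjusted p = 1.26e-06), again with no called difference between niche groups. In all, 7 of the 15 AT1 genes were above the control niche and none below. Pdpn, which lymphatic vessels and fibroblasts also make, was the one AT1 gene not called, at 94.3, 124 and 91.0 CPM in distal lung and 76.0, 105 and 108 CPM in the shSox9 niche.

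Genes of the transitional state that AT2 cells pass through on the way to AT1 cells showed no common direction. Of 19, 8 rose and 5 fell, with a median of 0.49. Cldn4, a tight junction gene of that state, stood at 17.0, 12.3 and 13.9 CPM in distal lung and 90.3, 42.6 and 32.7 CPM in the shSox9 niche (log2 fold change 1.94, SE 0.40, edgeR adjusted p = 0.00229), and its in vivo 4T1 mean was 192 CPM. Krt8, a keratin used as its main marker, stood at 219, 206 and 276 CPM and 495, 357 and 305 CPM and did not pass the test (log2 fold change 0.72, SE 0.27, edgeR adjusted p = 0.0521). Fn1, fibronectin, rose by 2.15 (adjusted p = 2.37e-06), whereas Krt19 fell by 2.34 (adjusted p = 4.52e-05) and the epithelial integrin Itgb6 by 2.08 (adjusted p = 6.77e-06). For 5 of the 8 risers the estimated 4T1 RNA could supply at least 50% of the rise, beside 1881 of all 3833 higher genes. The falls numbered 3 without distal library 3, shSox9 library 2 or shSox9 library 3.

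Of the epithelial lists, those of ciliated and club cells had the lowest medians. All 13 tested ciliated cell genes fell, with a median log2 fold change of -4.79, and 12 of 13 tested club cell genes fell, with a median of -3.85. Foxj1, the master regulator of motile cilia (chromosome 11, 116330704 to 116335399), stood at 61.4, 71.9 and 54.1 CPM in distal lung, at 5.91, 10.4 and 3.98 CPM in the control niche and at 0.423, 0.466 and 0.425 CPM in the shSox9 niche. The shSox9 niche was below distal lung (log2 fold change -7.13, SE 0.37, edgeR adjusted p = 6.05e-07) and below the control niche (log2 fold change -3.94, SE 0.38, edgeR adjusted p = 1.20e-04). In vivo 4T1 cells held 3.32 CPM on average. Ccdc153, a gene of ciliated cells, had 2 counts over the 3 shSox9 libraries and stood at 30.9, 33.5 and 23.3 CPM in distal lung, a ratio of 904 with a 95% counting interval of 249.7 to 7469.6. Scgb1a1, the secretoglobin that defines club cells, stood at 892, 1437 and 559 CPM in distal lung and 22.5, 32.5 and 77.0 CPM in the shSox9 niche (log2 fold change -4.46, SE 0.47, edgeR adjusted p = 2.42e-05). Cyp2f2, a cytochrome of club cells, fell by 5.48 (adjusted p = 9.42e-07). No difference between the niche groups was called for these club genes, but one was for Bpifa1, a secreted airway defence protein, at 1.02, 14.3 and 3.92 CPM in the control niche and 0.376, 0.279 and 0.212 CPM under the shSox9 label (edgeR adjusted p = 0.0109). Of 9 tested basal cell genes 4 fell and 2 rose, and their median was -1.04. Krt5, the basal keratin, had no count in the shSox9 niche and was at least 58.8-fold lower than the 1.30, 6.27 and 1.13 CPM of distal lung, taking 3 counts over the group as the floor, while Trp63 stood at 3.40, 5.59 and 3.82 CPM and 1.98, 7.08 and 5.15 CPM.

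By the naming rule the 12 largest falls were all immunoglobulin genes, which B cells and plasma cells make. Igha, the constant region of IgA secreted at mucosal surfaces, stood at 651, 1273 and 1971 CPM in distal lung and at 0.988, 0.279 and 1.38 CPM in the shSox9 niche (log2 fold change -10.54, SE 0.63, edgeR adjusted p = 8.23e-07). The control niche lay between, at 9.35, 3.56 and 6.33 CPM. Ighg1 had no count in the shSox9 niche and was at least 918-fold lower than in distal lung, where the libraries ranged widely, at 12.4, 100.01 and 24.5 CPM. As a class, chosen after its values were seen, 94 of 95 tested immunoglobulin genes fell, out of 429 in the annotation. A gene could pass the filter on low counts through the distal libraries alone, so this count is no test of direction. Summed over all 429, the level was 1.03% of that in distal lung. Many of these genes are near-identical, so single values carry the uncertainty of reads shared between copies. Outside this class the 12 largest falls, also taken after the values were seen, included the cilia genes Drc1, Cfap58, Rsph4a, Cfap65 and Cfap206. Drc1, a part of the dynein regulatory complex, had no count in the shSox9 niche against 9.45, 9.54 and 6.71 CPM in distal lung, at least 177-fold lower.

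Genes of epithelial adhesion were lower in the shSox9 niche. Epcam, the gene named in the titles, stood at 102, 83.8 and 101 CPM in distal lung and 32.1, 26.5 and 23.1 CPM in the shSox9 niche (log2 fold change -1.81, SE 0.27, edgeR adjusted p = 2.59e-04). It was also below the control niche, at 64.4, 69.4 and 28.8 CPM (log2 fold change -0.995, SE 0.26, edgeR adjusted p = 0.0213), and 4T1 cells in vivo held 51.9 CPM. Cdh1, E-cadherin, stood at 292, 273 and 255 CPM in distal lung and 107, 103 and 58.0 CPM in the shSox9 niche (log2 fold change -1.61, SE 0.25, edgeR adjusted p = 3.64e-04), beside 119 CPM in 4T1 cells in vivo. Of 17 tested junction genes 13 fell and 1, Cldn4, rose, with a median log2 fold change of -1.79. Cldn18, the claudin typical of the alveolus and nearly absent from 4T1 cells (0.830 CPM), stood at 1067, 953 and 1102 CPM and 184, 265 and 256 CPM (log2 fold change -2.15, SE 0.18, edgeR adjusted p = 5.38e-06). It was above the control niche by 1.95 (adjusted p = 9.67e-05), as were 8 of the 17 junction genes.

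Inflammatory genes moved the other way. NF-kB is a family of transcription factors held in the cytoplasm by inhibitors such as IkB-alpha and released by cytokines and danger signals. In the list of 20 inflammatory genes 12 rose and 3 fell, at a median log2 fold change of 0.66. Of the 12 risers, 10 lay above the mixture with 4T1 RNA in all 3 libraries, beside 55.1% of all higher genes. The promoters of 4 of the risers, Cxcl1, Il6, Nfkbia and Tnfaip3, hold a match to an NF-kB motif and are shown here because these genes rose and are described next. Ccl20, which fell, holds a match too. The stretches are 170 bases long and lie just before the RefSeq start site (GRCm38.p6), read 5′ to 3′ on the gene's strand, with each match, on either strand, in capitals.
Cxcl1 (chr5:90891075-90891244, plus strand): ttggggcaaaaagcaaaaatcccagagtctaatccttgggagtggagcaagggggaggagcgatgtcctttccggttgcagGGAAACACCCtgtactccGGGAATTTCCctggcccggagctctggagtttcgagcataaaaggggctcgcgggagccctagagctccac
Il6 (chr5:30012944-30013113, plus strand): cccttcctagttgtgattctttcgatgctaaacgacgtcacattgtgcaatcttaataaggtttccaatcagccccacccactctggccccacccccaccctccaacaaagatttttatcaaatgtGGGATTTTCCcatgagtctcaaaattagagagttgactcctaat
Nfkbia (chr12:55492648-55492817, minus strand): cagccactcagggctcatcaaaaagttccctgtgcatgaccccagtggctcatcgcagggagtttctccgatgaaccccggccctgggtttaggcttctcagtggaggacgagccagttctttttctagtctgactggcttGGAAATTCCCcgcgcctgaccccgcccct
Tnfaip3 (chr10:19015411-19015580, minus strand): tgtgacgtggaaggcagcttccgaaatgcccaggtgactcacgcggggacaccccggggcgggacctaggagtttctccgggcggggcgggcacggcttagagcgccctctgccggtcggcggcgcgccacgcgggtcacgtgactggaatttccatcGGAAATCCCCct
Over the 250 bases before each start, 464 of 32851 promoters in the RefSeq table (1.41%) held the motif on either strand. By gene these were 447 of 27025 (1.65%), beside 7 of the 16 members of this list that were matched (43.8%) 6 of 10 matched chemokines and myeloid growth factors (60%), some of them in both lists, and 0 of 14 matched immediate early genes. A match describes letters, not a bound site, and the list was chosen with such targets in mind.

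Cxcl1, a chemokine that draws neutrophils, stood at 49.9, 59.9 and 60.1 CPM in distal lung, 193, 194 and 195 CPM in the control niche and 456, 588 and 603 CPM in the shSox9 niche. No shSox9 library overlapped either group, and the gene was higher than in distal lung (log2 fold change 3.28, SE 0.13, edgeR adjusted p = 1.88e-07) and than in the control niche (log2 fold change 1.501, SE 0.12, edgeR adjusted p = 6.58e-05). Its in vivo 4T1 mean was 387 CPM, below every shSox9 library. Il6, an inflammatory cytokine, stood at 39.9, 47.5 and 33.9 CPM in distal lung and 124, 177 and 198 CPM in the shSox9 niche (log2 fold change 2.04, SE 0.22, edgeR adjusted p = 2.67e-05), beside 0.571 CPM in 4T1 cells in vivo. It too was above the control niche (difference 0.82, adjusted p = 0.0175). The feedback inhibitors of the pathway rose with them. Tnfaip3 (A20) went from 90.7, 107 and 103 CPM to 342, 361 and 429 CPM (log2 fold change 1.91, SE 0.11, edgeR adjusted p = 8.23e-07), Nfkbia (IkB-alpha) from 247, 269.7 and 304 CPM to 617, 643 and 727 CPM (log2 fold change 1.27, SE 0.11, edgeR adjusted p = 6.60e-06) and Nfkbiz (IkB-zeta) from 165, 211 and 192 CPM to 493, 682 and 716 CPM (log2 fold change 1.73, SE 0.16, edgeR adjusted p = 9.16e-06). All 3 were also above the control niche, by 0.91, 0.65 and 1.29 on the log2 scale (adjusted p = 3.08e-04, 0.00182 and 3.22e-04). Members that fell were the adhesion gene Icam1 (-1.04, adjusted p = 1.05e-04), which AT1 cells make in quantity, the iron-binding Lcn2 (-1.38, adjusted p = 8.34e-05) and the chemokine Ccl20 (-2.44, adjusted p = 0.0246). The call of Ccl20 was lost without distal library 2 (adjusted p = 0.0536), distal library 3 (0.0992), shSox9 library 1 (0.0673) or shSox9 library 3 (0.0844), out of 13 alternatives with adjusted p values up to 0.0992.

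Chemokines moved in both directions. Ccl2, which draws monocytes, stood at 53.9, 60.1 and 50.7 CPM in distal lung and 412, 572 and 536 CPM in the shSox9 niche (log2 fold change 3.21, SE 0.18, edgeR adjusted p = 7.75e-07). It was not told from the control niche (adjusted p = 0.81). Ccl7, a close relative, rose by 2.15 (adjusted p = 3.88e-05) and the interferon-induced Cxcl10 by 2.07 (adjusted p = 1.92e-05), but both were below the control niche, with differences of -1.10 and -1.03 (adjusted p = 0.00704 and 0.00431). Csf3, the growth factor of neutrophils, stood at 4.70, 1.64 and 2.69 CPM and 142, 66.9 and 46.1 CPM (log2 fold change 4.80, SE 0.47, edgeR adjusted p = 1.39e-05), and with 359 CPM in 4T1 cells in vivo it was not above the mixture in every library. Cxcl17, a mucosal chemokine of airway epithelium, fell by 2.48 (adjusted p = 3.05e-05). Of 18 tested chemokines and myeloid growth factors 8 rose and 5 fell, and the falls numbered 1 without distal library 3 and 2 without shSox9 library 2 or 3. The median of this list went from 0.77 to 0.08 without shSox9 library 1. Among 14 complement and acute phase genes 4 rose and 3 fell. The serum amyloid gene Saa3 stood at 111, 106 and 89.3 CPM in distal lung and 287, 364 and 340.3 CPM in the shSox9 niche (log2 fold change 1.69, SE 0.22, edgeR adjusted p = 1.17e-04), whereas Pigr, the receptor that carries IgA across epithelium, fell by 3.29 (adjusted p = 1.92e-06).

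Immediate early genes, which respond to growth factors and stress within minutes, rose in 12 of 18 and fell in none, with a median log2 fold change of 0.78. Against the control niche, 13 of the 18 were higher and none lower, with a median difference of 0.85. Nr4a1, a nuclear receptor induced by many stimuli, stood at 586, 666 and 511 CPM in distal lung, 585, 712 and 726 CPM in the control niche and 1180.5, 1962 and 2146 CPM in the shSox9 niche (log2 fold change 1.58, SE 0.21, edgeR adjusted p = 1.06e-04; against the control niche log2 fold change 1.39, SE 0.21, edgeR adjusted p = 9.50e-04). Egr2 rose by 2.09 (adjusted p = 7.21e-06), Egr3 by 2.21 (adjusted p = 3.90e-05) and Btg2, an antiproliferative gene, by 1.02 (adjusted p = 0.00109). The largest rise of the list, that of Fosl1 (3.52, adjusted p = 9.28e-06), was not above the mixture, and 4T1 cells in vivo held 388 CPM. Of 11 heat shock genes 7 rose and 2 fell, with Dnajb1 at 184, 269 and 178 CPM and 385, 614 and 616 CPM (log2 fold change 1.35, SE 0.21, edgeR adjusted p = 3.75e-04). The falls, of Hspa1a and Hspa1b, were both lost without distal library 2, and that of Hspa1a also without shSox9 library 2 (adjusted p = 0.104) or 3 (0.0639), with DESeq2 (0.0680) and with plain library sizes (0.0909).

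**Figure D3:**
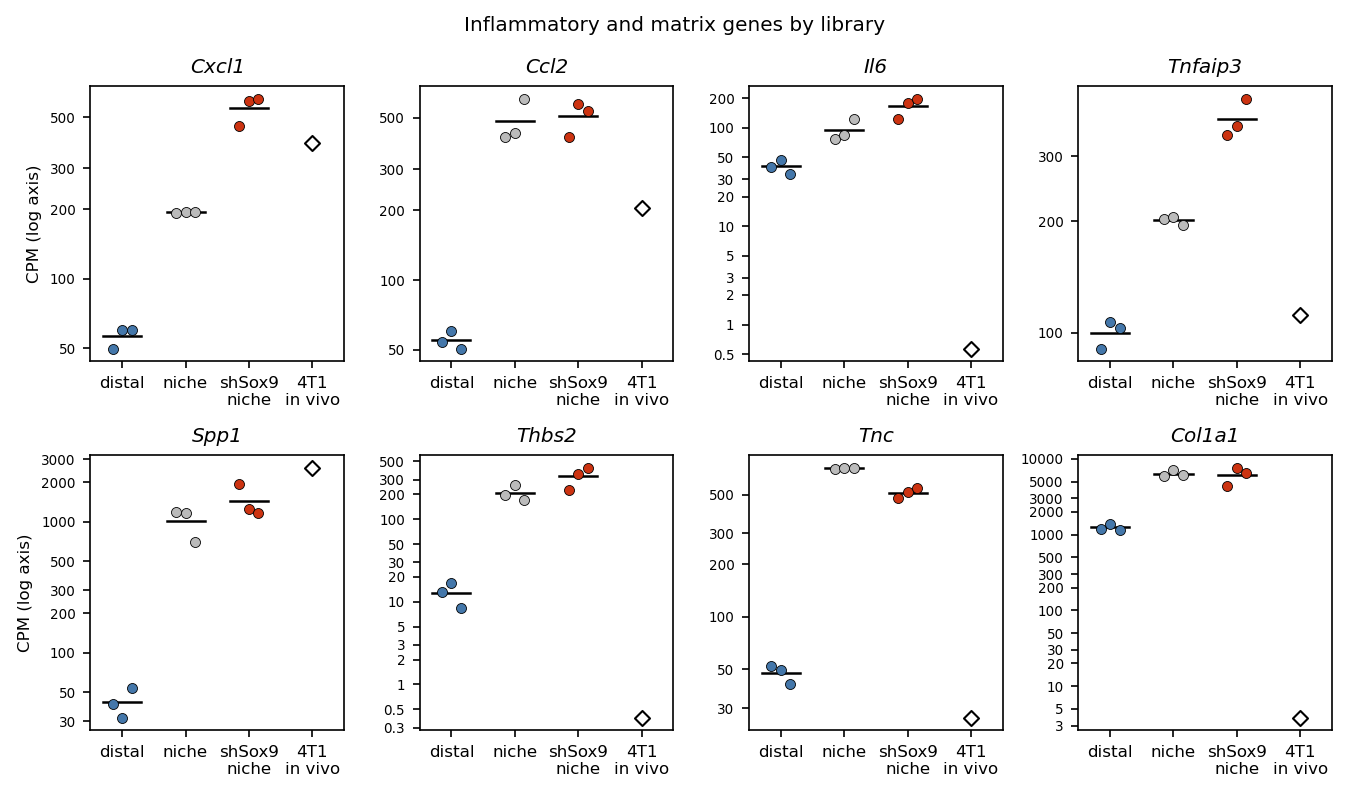
Level of 8 inflammatory and matrix genes in each library (CPM after TMM scaling, log axis; points are libraries, bars are means of 3, and the open diamond is the mean plain CPM of 3 in vivo 4T1 libraries). All 3 shSox9 niche libraries lie above all 3 distal libraries in every panel, and above the control niche for Cxcl1, Il6 and Tnfaip3.

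Matrix and mesenchymal genes rose in the shSox9 niche, 13 of 18 tested matrix, integrin and protease genes with a median log2 fold change of 1.06, and 12 of 16 mesenchymal transition genes with a median of 1.66. Without shSox9 library 1, 12 of the mesenchymal genes rose and 1 fell. Of these risers 8 of the 13 and 10 of the 12 lay above the mixture with 4T1 RNA, beside 55.1% of all higher genes. For 6 of the 13 and 3 of the 12 the estimated 4T1 RNA could supply at least 50% of the rise. Tnc, tenascin-C, a matrix protein of developing and injured tissue (chromosome 4, 63959785 to 64047015), stood at 52.3, 49.3 and 41.3 CPM in distal lung and 478, 514 and 544 CPM in the shSox9 niche (log2 fold change 3.42, SE 0.12, edgeR adjusted p = 1.40e-07). It was somewhat below the control niche, at 698, 714 and 706 CPM (log2 fold change -0.46, SE 0.11, edgeR adjusted p = 0.0113). Plat, the tissue plasminogen activator, went from 79.5, 97.4 and 76.3 CPM to 634, 884 and 1092 CPM (log2 fold change 3.37, SE 0.20, edgeR adjusted p = 8.23e-07). Timp1, an inhibitor of metalloproteinases, rose by 2.33 (adjusted p = 1.28e-06) and the membrane metalloproteinase gene Mmp14 by 1.81 (adjusted p = 1.44e-06). Snai1, a repressor of E-cadherin, stood at 21.3, 23.2 and 19.0 CPM and 58.5, 80.5 and 76.0 CPM (log2 fold change 1.76, SE 0.13, edgeR adjusted p = 2.66e-06). Lama3 and Itgb6, an epithelial laminin chain and an epithelial integrin, were the members that fell, by 1.45 and 2.08 (adjusted p = 0.00564 and 6.77e-06).

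Some fibroblast markers moved with these groups. Col1a1, the main chain of type I collagen (chromosome 11, 94936224 to 94953042), stood at 1185, 1385 and 1149.8 CPM in distal lung, 5856, 7043 and 6063 CPM in the control niche and 4382, 7657 and 6456 CPM in the shSox9 niche (log2 fold change 2.31, SE 0.20, edgeR adjusted p = 7.39e-06), beside 3.86 CPM in 4T1 cells in vivo. The niche groups were not told apart in it (adjusted p = 0.92). Col3a1 rose by 1.98 (adjusted p = 8.24e-06), and Pdgfrb, a receptor of pericytes and fibroblasts, stood at 34.5, 40.5 and 41.1 CPM and 149.7, 158 and 207 CPM (log2 fold change 2.15, SE 0.14, edgeR adjusted p = 1.18e-06). Of 12 fibroblast markers 5 rose and none fell, with a median log2 fold change of 0.39. With plain library sizes 8 rose, while 1 fell without shSox9 library 3. In the control niche 5 of the 12 were higher and 4 lower than in distal lung, with a median of 0.07. The summed level of the 12 markers was 6517 to 7870 CPM in distal lung, 13408 to 15204 CPM in the control niche, 12427 to 19334 CPM in the shSox9 niche and 161 CPM in 4T1 cells in vivo. Other markers of fibroblasts such as Inmt (1326, 1618 and 1383 CPM and 715, 991 and 1352 CPM) and Dcn (255, 315 and 395 CPM and 416, 325 and 389 CPM) did not pass the test against distal lung. The part of fibroblast RNA in the matrix results was not tested.

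Among the 12 largest rises named by the rule, Spp1, Lama1, Thbs2, Frzb, Dmp1 and Ibsp encode secreted or matrix proteins. Spp1, osteopontin (chromosome 5, 104435118 to 104441050), led the list, at 40.4, 32.0 and 54.3 CPM in distal lung and 1935, 1239 and 1169 CPM in the shSox9 niche (log2 fold change 5.10, SE 0.31, edgeR adjusted p = 8.23e-07). Its in vivo 4T1 mean of 2588 CPM gives a mixture of up to 525 CPM, below every shSox9 library. Lama1, a laminin chain of embryonic basement membranes, had no counts in 4T1 cells in vivo and stood at 0.309, 0.0682 and 0.141 CPM in distal lung and 5.17, 6.80 and 6.58 CPM in the shSox9 niche (log2 fold change 5.08, SE 0.47, edgeR adjusted p = 9.30e-06). Thbs2, thrombospondin 2, at 0.397 CPM in 4T1 cells in vivo, went from 13.1, 16.9 and 8.34 CPM to 225, 351 and 422 CPM (log2 fold change 4.70, SE 0.30, edgeR adjusted p = 1.18e-06), and Frzb, a secreted Wnt antagonist, from 0.618, 0.136 and 0.212 CPM to 6.12, 12.7 and 8.02 CPM (log2 fold change 4.73, SE 0.48, edgeR adjusted p = 1.85e-05). Ibsp and Dmp1, proteins of mineralised matrix, were highest in shSox9 library 1, with 10.5, 3.72 and 1.49 CPM and 50.1, 26.6 and 21.8 CPM across libraries, and rose by 4.40 and 4.89 (adjusted p = 0.00143 and 1.78e-05). Tfap2a, Csf3 and Hoxa10, the last a gene of the 4T1 panel and so chosen for low distal counts, were not above the mixture in every library. Syt13, Mmp10 and Moxd1 lay above it in all 3 libraries.

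**Figure D4:**
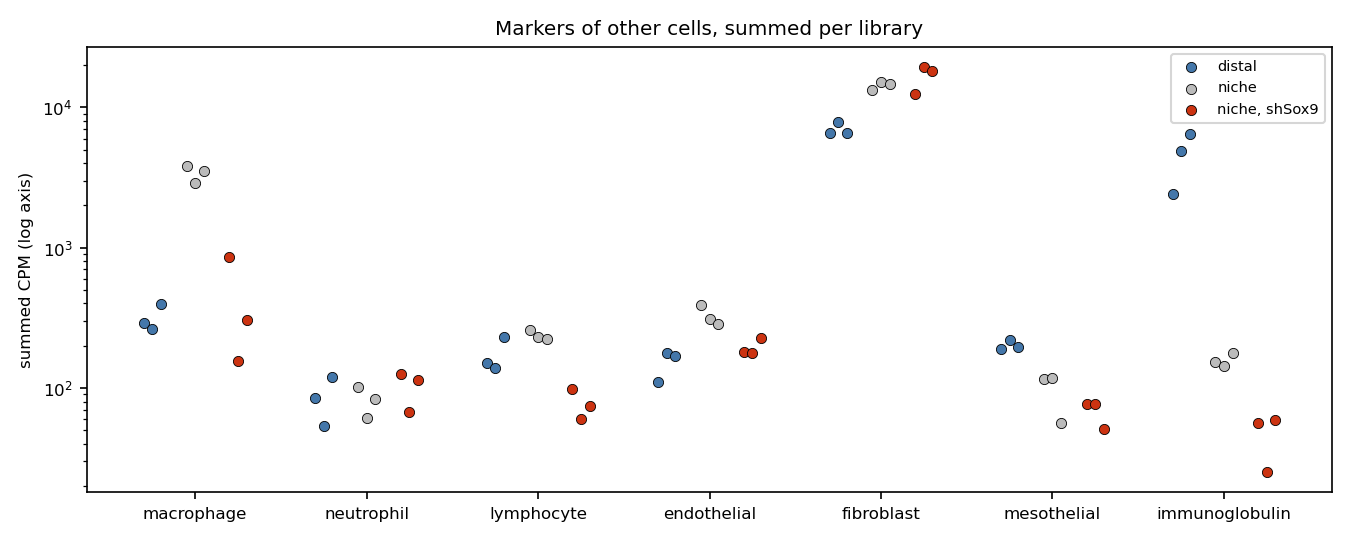
Summed level of marker lists of other cell types, and of immunoglobulin genes, in each library (summed CPM after TMM scaling, log axis; points are libraries). Macrophage markers sum to 155 and 303 CPM in shSox9 libraries 2 and 3 and to 863 CPM in its library 1. The sum of fibroblast markers, though not every marker, is above distal lung in both niche groups, and immunoglobulin genes are lowest in the shSox9 niche.

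Genes of cell division rose, and their levels were set beside those of 4T1 cells. All 19 mitosis genes and 17 of 18 DNA replication genes were higher than in distal lung, with medians of 1.60 and 0.87. Mki67, the Ki-67 antigen of dividing cells, stood at 17.9, 19.9 and 32.5 CPM in distal lung and 77.1, 64.1 and 44.3 CPM in the shSox9 niche (log2 fold change 1.40, SE 0.24, edgeR adjusted p = 5.97e-04), beside 224 CPM in 4T1 cells in vivo. For all 19 and all 17 of these genes the estimated 4T1 RNA could supply at least 50% of the rise, beside 1881 of all 3833 higher genes. The part of 4T1 RNA in the rise was not tested. At the 16.6% share, 3 mitosis genes and no replication gene stood above the mixture in all 3 libraries. Ccnb2, a cyclin, stood at 102, 93.0 and 85.1 CPM against a mixture of up to 63.2 CPM. Cenpf, a kinetochore protein (60.6, 48.1 and 39.4 CPM), was only just above its mixture of up to 39.1 CPM. So was Tpx2, a spindle factor (48.8, 55.2 and 44.8 CPM), with up to 44.0 CPM. The higher shares from the other panels were not set against these genes. Of the 18 replication genes 14 were below the control niche, among them Mcm6, a subunit of the replicative helicase (difference -0.81, adjusted p = 0.0359). By the panel of 4 genes the 4T1 share was 25.1%, 21.8% and 13.1% in the control niche. It was 16.6%, 16.0% and 13.3% in the shSox9 niche. Mcm6 stood at 593 CPM in 4T1 cells in vivo, and the part of 4T1 RNA in these differences was not tested. Mcm6 (116, 89.1 and 55.5 CPM) and Cdc6 (25.4, 20.3 and 10.7 CPM) lay below the mixture in all 3 libraries. In that mixture only the 4T1 level is without TMM scaling, and whether these places hold in 1 unit was not tested.

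**Figure D5:**
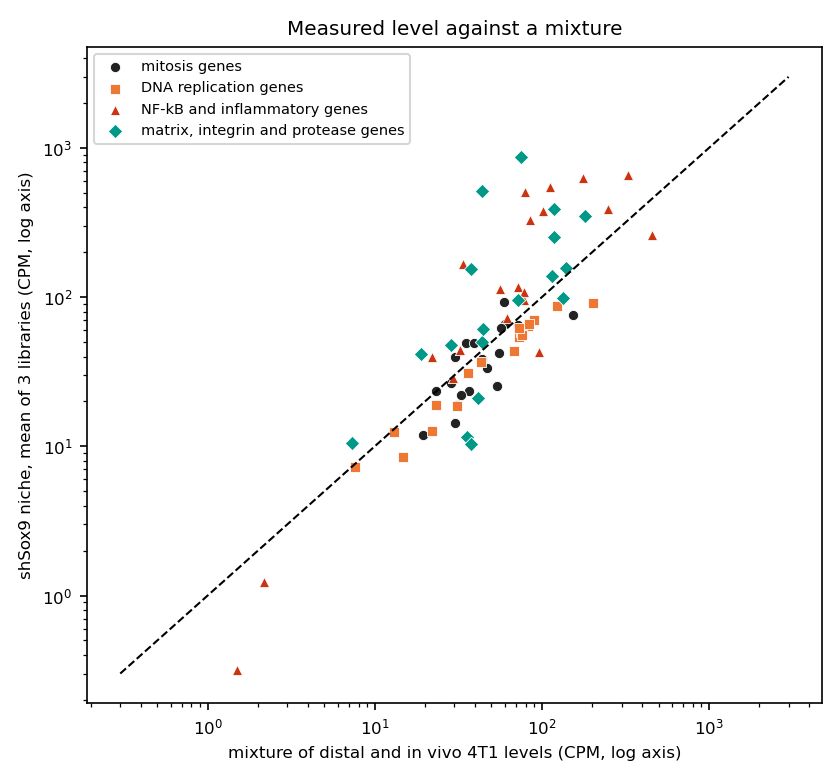
Mean level of each member of 4 gene lists in the shSox9 niche (vertical axis, CPM, log) against a mixture of the distal mean and the in vivo 4T1 mean at the 16.6% tumour share of the 4-gene panel (horizontal axis, CPM, log), with the line of equality dashed. Mitosis genes lie near the line, the replication genes Mcm6, Cdc6, Uhrf1 and Mcm3 lie below it, and many inflammatory and matrix genes lie above it. Distal and shSox9 levels carry TMM scaling and 4T1 levels do not, which favours places below the line.

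Progenitor and stem-associated genes rose in 10 of 16 and fell in 5. For 7 of the 10 the estimated 4T1 RNA could supply at least 50% of the rise, beside 1881 of all 3833 higher genes. Sox9 itself, at 81.3, 58.7 and 35.9 CPM, lay on both sides of a mixture of 51.7 to 73.4 CPM. Etv4, a factor downstream of fibroblast growth factor in lung tips, stood at 2.60, 2.11 and 2.54 CPM in distal lung and 37.3, 33.6 and 23.1 CPM in the shSox9 niche (log2 fold change 3.69, SE 0.24, edgeR adjusted p = 1.15e-06), just above a mixture of up to 22.1 CPM. Itgb4, an integrin of a damage-responsive progenitor, stood at 8.22, 6.68 and 8.06 CPM and 140.2, 66.9 and 48.7 CPM (log2 fold change 3.48, SE 0.35, edgeR adjusted p = 1.73e-05), beside 196 CPM in 4T1 cells in vivo. Sox2, the factor of airway progenitors, had 2 counts over the 3 shSox9 libraries and 58 over the distal ones, a ratio of 39.7 with a 95% counting interval of 10.5 to 335, and Id2, of distal tips, fell by 1.42 (adjusted p = 1.03e-05). Ly6a, the Sca-1 antigen, fell by 0.98 (adjusted p = 0.00265) and was below the control niche by 1.59 on the log2 scale (adjusted p = 5.01e-04).

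Most genes of interferon response and antigen presentation were lower than in the control niche, and many were lower than in distal lung. Of 22 interferon-stimulated genes 12 fell and 1, Cxcl10, rose, with a median of -0.54, and with plain library sizes 4 fell. Without distal library 3 or shSox9 library 2, 7 fell. All 22 were below the control niche, with a median difference of -1.23. Irf7, a master factor of the response, stood at 195, 212 and 226 CPM in distal lung, 309.9, 361 and 501 CPM in the control niche and 134, 131 and 132 CPM in the shSox9 niche (log2 fold change -0.67, SE 0.15, edgeR adjusted p = 0.00412; against the control niche log2 fold change -1.56, SE 0.16, edgeR adjusted p = 1.31e-04). Of 14 interferon-gamma induced GTPases 5 fell and 1 rose, or 2 and 6 with plain library sizes; 2 rose without distal library 2, and 13 were below the control niche.

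Class II presentation genes, which AT2 cells as well as macrophages and B cells express, fell in 7 of 8, with a median of -1.81, and all 8 were below the control niche. Cd74, the invariant chain, stood at 12339, 10356 and 13536 CPM in distal lung, 9314, 10769.6 and 13489.9 CPM in the control niche and 3435, 2758 and 2414 CPM in the shSox9 niche (log2 fold change -2.07, SE 0.20, edgeR adjusted p = 1.40e-05; against the control niche log2 fold change -1.96, SE 0.20, edgeR adjusted p = 1.48e-04). Ciita, the transactivator of the class, stood at 87.8, 77.2 and 93.6 CPM in distal lung and 27.7, 27.5 and 20.3 CPM in the shSox9 niche (log2 fold change -1.78, SE 0.13, edgeR adjusted p = 2.52e-06). Ctss, a lysosomal protease, was the member not called, at 329, 54.0 and 104 CPM in the 3 shSox9 libraries, and it was high in library 1 only. Without that library all 8 fell. Of 11 class I genes 5 fell and 1 rose, with 1 fall under plain library sizes and 3 without distal library 3 or shSox9 library 3. The rise was lost without shSox9 library 2, and all 11 were below the control niche.

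Immune cell markers differed between libraries of the shSox9 niche. The 15 macrophage markers summed to 863 CPM in shSox9 library 1 but to 155 and 303 CPM in libraries 2 and 3, beside 262 to 395 CPM in distal lung and 2901 to 3811 CPM in the control niche. Against distal lung 1 rose, Cd163, a scavenger receptor of resident macrophages, and none fell; without library 1, 2 rose and 3 fell, and without library 2, 5 rose. Against the control niche 14 were lower, among them Adgre1 (109.6, 112 and 132 CPM in the control niche and 31.7, 7.12 and 9.40 CPM in the shSox9 niche; log2 fold change -2.87, SE 0.46, edgeR adjusted p = 0.00151). The part of macrophage RNA in the interferon and class II differences between niche groups was not tested. Lymphocyte markers fell in 10 of 13, with a median of -1.36, among them the B cell receptor gene Cd79b (-2.34, adjusted p = 6.18e-05). Ptprc, CD45, which all leukocytes carry, stood at 73.0, 59.9 and 108 CPM in distal lung and 69.4, 29.5 and 34.8 CPM in the shSox9 niche, where library 1 overlapped the distal range (log2 fold change -0.85, SE 0.29, edgeR adjusted p = 0.0347). This call was lost in 7 of 13 alternatives, with adjusted p values from 0.000144 to 0.162 over all of them. Among these were the fits without distal library 1 (adjusted p = 0.0581), distal library 3 (0.154), shSox9 library 2 (0.116) and shSox9 library 3 (0.129). Of 12 endothelial markers 2 rose and none fell, with Pecam1 at 8.71, 16.4 and 17.1 CPM and 7.39, 6.29 and 18.3 CPM, while 2 fell without distal library 1 and 4 without shSox9 library 3. Further, 4 of 6 mesothelial markers fell. Of 8 tested neutrophil markers 1 rose and 1 fell, and none of 5 tested erythroid and platelet markers was called, although 1 fell without shSox9 library 1.

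Signalling lists were mixed. In the Wnt list 4 genes rose and 4 of 11 fell. The target gene Sp5 (-3.05, adjusted p = 4.12e-05) and the feedback inhibitors Rnf43 (-2.27, adjusted p = 3.97e-04) and Nkd1 (-1.88, adjusted p = 9.07e-07) fell but stood above the control niche, whereas the factor Lef1 rose by 1.68 (adjusted p = 3.85e-04). Of 12 Notch genes 3 rose and 2 fell, with Heyl, a Notch effector of vascular mural cells, at 40.7, 46.4 and 39.4 CPM and 132, 209 and 222 CPM (log2 fold change 2.15, SE 0.18, edgeR adjusted p = 5.38e-06). In the TGF-beta and BMP list 6 of 12 rose and 2 fell. Ltbp2, a matrix protein, stood at 21.6, 19.2 and 24.6 CPM and 193, 169 and 179 CPM (log2 fold change 3.05, SE 0.12, edgeR adjusted p = 1.88e-07), and Id3, a BMP target, rose by 1.82 (adjusted p = 1.82e-05). Of 10 YAP genes 5 rose and 1 fell (4 and 2 without shSox9 library 1), among the risers the receptor kinase Axl (1.72, adjusted p = 2.79e-06). Among 14 p53 targets 5 rose and 2 fell, or 4 and 4 without shSox9 library 1, with 1 fall without distal library 1 or shSox9 library 3. Of 20 hypoxia and glycolysis genes 8 rose and 4 fell. Of the 8 risers, 7 had at least 50% of their rise within the estimated 4T1 RNA, beside 1881 of all 3833 higher genes. Of 20 oxidative phosphorylation genes 3 rose and none fell, but 18 rose with plain library sizes and 5 without shSox9 library 1. Of 16 genes of unfolded protein and stress responses 3 rose and 2 fell.

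The largest differences between the niche groups, named by the same rule, were 6 genes in each direction. Those lower under the shSox9 label included Cd209f, Cd209g and Cd209b, lectins of myeloid cells, Chil3, a chitinase-like protein of alveolar macrophages, and Dnase1l3, a nuclease of myeloid cells. Chil3 stood at 1092, 174 and 156 CPM in the control niche, 20.3, 9.73 and 5.89 CPM in the shSox9 niche and 23.5, 7.09 and 7.49 CPM in distal lung (shSox9 against control niche, log2 fold change -5.30, SE 0.86, edgeR adjusted p = 0.00159). Those higher included Tfcp2l1, a transcription factor gene with 162, 117 and 94.8 CPM in distal lung, 15.7, 28.8 and 21.7 CPM in the shSox9 niche and 3.27, 5.82 and 1.33 CPM in the control niche (log2 fold change 2.62, SE 0.39, edgeR adjusted p = 9.89e-04), and Ppp1r1b, DARPP-32, with 64.4, 47.4 and 36.0, 9.55, 11.5 and 10.3 and 2.30, 1.78 and 0.603 CPM in the same order (log2 fold change 2.69, SE 0.34, edgeR adjusted p = 3.97e-04). Ttc21a, Abca17 and Tex15 were the other 3 of this kind, each with the shSox9 niche below distal lung and above the control niche, and Ibsp, given above, was higher than in both. The fall of Ttc21a from distal lung was lost in 6 of 13 alternatives, with adjusted p values up to 0.160, among them those without distal library 1 (0.160), distal library 2 (0.130), shSox9 library 1 (0.106) or shSox9 library 3 (0.0935). That of Tex15 was lost without distal library 1 (adjusted p = 0.0684).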

How the data were processed

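RNA-seq of sorted lung epithelial cells was read from the expected counts per gene that the authors deposited. Per the submitters' processing notes, RSEM, DESeq2 and the mouse build GRCm38 were used; the sources used here give no versions. Expected counts were rounded, since the test needs whole numbers. TPM values (levels per transcript length) are the authors' deposited values and served only to compare levels between genes. Gene positions came from GENCODE annotation of GRCm38.

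The 9 epithelial libraries were fitted together in edgeR 4.0.16 (R 4.3.3) with TMM scaling, a filter on low counts (17640 genes kept) and the quasi-likelihood F-test. Each contrast was adjusted by Benjamini-Hochberg over all genes tested, and a gene was called at an adjusted p below 0.05. Fold changes are log2 values with an SE derived from the F statistic (fold change over the square root of F). Levels are means or single libraries in CPM. Single values were compared by exact permutation tests (scipy 1.17.1). On simulated counts of 16956 genes for the shSox9 against distal comparison, all 50 genes raised 4-fold and all 50 lowered 4-fold were called, as were 39 of 50 raised and 35 of 50 lowered 2-fold, with 13 false calls. Only 200 genes were changed there, as many raised as lowered, and no 4T1 RNA was added. The simulation therefore does not test the choice of scaling.

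The mixture of a gene is its highest distal library (or lowest, for falls) at the share left to host RNA plus the highest (or lowest) in vivo 4T1 library at the estimated 4T1 share of 16.6%. Its distal part, and the shSox9 levels set against it, carry TMM scaling, whereas its 4T1 part does not. A rise was counted as supplied by 4T1 RNA where that share of the in vivo 4T1 mean reached 50% of it. Intervals and floors of 3 counts (0.139 to 0.189 CPM per library) cover counting error only, as the reads carry no molecular identifiers that the sources used here name.

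Groups, gene lists (39 lists, 546 genes) and members were chosen with earlier results of these data known. Named were the 12 largest rises and falls with at least 5 CPM and no overlap of libraries, up to 4 called genes per list by size of change, 8 genes whatever their values, and up to 6 genes in each direction between the niche groups. Other list members named, the immunoglobulin class and the largest falls outside it were chosen after their values were seen. Some genes these rules name are not reported here. Alternatives were DESeq2 1.42.0, other scalings, no filter, 6 libraries, a replicate block and leaving out each library. Replicates are pools, and p-values measure the spread between pools.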

Additional observations from a re-analysis of the deposited data

Results flagged for a closer look

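Of the 7719 genes called against distal lung, 124 were called in opposite directions from distal lung in the niche groups, 11 higher and 113 lower in the shSox9 niche. Those given here differed between the niche groups by the edgeR test of that difference itself. Both comparisons share the distal libraries.

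Dnase1l3 and Ms4a4c were lower in the shSox9 niche and higher in the control niche than in distal lung. Dnase1l3, a secreted nuclease of myeloid cells, stood at 42.8, 56.2 and 43.0 CPM in distal lung, 319.9, 519 and 616 CPM in the control niche and 32.4, 6.75 and 11.5 CPM in the shSox9 niche, and the niche groups differed by -4.84 on the log2 scale (edgeR adjusted p = 1.49e-04). Ms4a4c, a membrane protein gene, stood at 13.0 ± 3.37, 58.0 ± 6.77 and 5.95 ± 3.27 CPM in the same order (SD, n = 3), with a difference of -3.28 (edgeR adjusted p = 1.44e-04). Their calls against distal lung were lost under some settings. For Dnase1l3 the call was lost in 3 of 13 alternatives, with plain library sizes (adjusted p = 0.0518), without distal library 2 (0.0615) and without shSox9 library 3 (0.0771). For Ms4a4c it was also lost in 3, with plain library sizes (adjusted p = 0.0596), without distal library 3 (0.0663) and without shSox9 library 3 (0.0549).

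Smoc2, Fam13c and Dusp8 went the other way. Smoc2, a matricellular protein, stood at 29.3 ± 1.84 CPM in distal lung, 21.4 ± 5.72 CPM in the control niche and 57.6 ± 9.13 CPM in the shSox9 niche (SD, n = 3), with a difference of 1.43 between niche groups (edgeR adjusted p = 3.73e-04). Fam13c stood at 7.86 ± 1.64, 4.41 ± 0.216 and 11.5 ± 1.88 CPM (SD, n = 3), with a difference of 1.38 (edgeR adjusted p = 9.62e-04). Dusp8, a phosphatase of stress kinases, stood at 16.3 ± 1.55, 12.3 ± 0.995 and 23.6 ± 4.03 CPM (SD, n = 3), with a difference of 0.94 (edgeR adjusted p = 0.00161). The rise of Fam13c from distal lung was lost in 9 of 13 alternatives, with adjusted p values up to 0.141, among them those without distal library 1 or 3 or shSox9 library 2 or 3. That of Dusp8 was lost without distal library 1 (adjusted p = 0.0584) or shSox9 library 1 (0.0530), and that of Smoc2 in none of the 13. The control niche was called below distal lung at edgeR adjusted p = 0.0498 for Smoc2, 0.0439 for Dusp8 and 0.00526 for Fam13c. For Smoc2, control niche library 1 (27.9 CPM) overlapped the distal range of 27.7 to 31.3 CPM. The 13 alternatives did not refit the control niche against distal lung.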

How the results depend on the processing

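The count of genes called between the shSox9 niche and distal lung stayed within 1.5 times of 7719 in every alternative run, from 5391 to 9133, and at 8045 with DESeq2. Genes called higher numbered 3833 and moved further. They numbered 6471 with plain library sizes, where the median log2 fold change of all genes was 0.28 instead of -0.00 and 70.9% of calls were higher instead of 49.7%. They numbered 1960 without genes whose rise 4T1 RNA could supply, 2111 above the mixture, and 1867 above it with the share of the wider panel. The 1960 follows almost wholly from leaving out the 1881 such genes among the 3833, so it is no separate test. These mixtures, and the panel without Exosc6, were chosen after seeing the data. Leaving out 1 library gave 6581 to 7715 called, 3235 to 3723 higher and 3346 to 3992 lower. Between the niche groups it gave 2238 to 4224 called, 940 to 2039 higher and 1298 to 2185 lower, the lowest without control niche library 1. The cause was not tested.

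The difference in 4T1 share was 18.4 percentage points without Exosc6, 15.3 with the wider panel and 13.9 to 15.6 with 1 library left out; limits of 50 and 0.5 CPM left no gene. Replicate numbers were not taken to pair the samples. Correlations of deviations between libraries of the same number ran from -0.052 to 0.069 for shSox9 against distal and from 0.0755 to 0.107 between the niche groups, where every library correlated best with its own number, a hint from the data and not from the design. The replicate block gave 7692 calls, 3822 higher, and 3638 between niche groups, and with it Hspa1a (adjusted p = 0.0522), Ttc21a (0.0522) and Fam13c (0.0580) were not called. Of 183 named genes called, 167 kept call and direction in every alternative. The 3 that reversed were not called against distal lung. With plain library sizes Cd209f turned to 0.13 and Chil3 to 0.24. With 1 library left out the log2 fold change ran from -3.82 to 1.15 for Cd209f, from -1.27 to 4.40 for Cd209g and from -0.70 to 0.72 for Chil3. Of 1014 counts over lists and settings, 939 stayed within 1.5 times.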
